A study of Mus musculus with 8 samples.

Results

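Voltage-gated ion channels are described here by 7 transcript isoforms of 6 genes in hippocampal RNA-seq libraries from Jade2-knockout and control mice. They were chosen among the 1679 rows of the deposited table by a gene symbol that begins with Kcn (potassium channels), Scn followed by a number and a or b (sodium channels), Cacn (calcium channels) or Hcn (pacemaker channels), and the rule also takes unnamed rows of the same merged loci. Potassium channels had 5 of these isoforms, of 4 genes (Kcna2, Kcnh2, Kcnh7 and Kcnt1), sodium channels 1 of Scn8a and calcium channels 1 of Cacna2d3. No Hcn isoform is among the isoforms reported here, so HCN channels were not analysed. RefSeq (GRCm38.p6) has 142 genes whose symbols meet the same rule, 98 of them potassium, 14 sodium, 26 calcium and 4 HCN. The rule goes by symbol only, so it also takes the sodium-activated channel gene Kcnt1 and the auxiliary subunit gene Cacna2d3. These counts are thus not of voltage-gated pores alone.

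The 4 knockout libraries came from Jade2-knockout mice and the 4 control libraries from wild-type mice, all C57BL/6 and 8 weeks old. Jade2 is a PHD-finger protein that works with the histone acetyltransferase HBO1. The labels do not say which exons the knockout removes, whether it is restricted to a cell type, or whether each library is a separate animal. The p-values below therefore measure only the spread between these libraries, which may be technical. The table was selected before deposition: in the authors' deposited table no p exceeds 0.0498 and no absolute log2 fold change is under 1.00. Being listed is thus already a statement about the difference, and channel isoforms outside the list were not analysed here. Values are given as FPKM, a transcript's level per length scaled to sequencing yield, and read depth is unknown.

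Voltage-gated channels open when the membrane potential changes. Sodium channels start the action potential, potassium channels end it and set how fast a neuron can fire again, and calcium channels couple it to transmitter release and signalling. Each pore-forming gene gives several isoforms through alternative starts, exons and ends, and auxiliary subunits alter the number of channels at the surface. In the hippocampus these channels set the excitability of pyramidal and granule cells and of fast-firing interneurons.

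What distinguishes the listed isoforms from the full-length transcript of their gene can be read from GENCODE M21 (GRCm38, the assembly of the authors' mm10 build), where all 7 had the coordinates of the table. The full-length transcript is here the longest that the annotation marks as principal. Of the 7, 6 are annotated as protein coding (85.7%, against 62.3% of 1136 annotated transcripts in the list) and 1, of Kcnh2, as a processed transcript without a coding sequence. The 6 coding isoforms fall into 3 kinds: both Kcna2 isoforms keep the whole coding sequence, Kcnt1 loses a single exon, and those of Kcnh7, Scn8a and Cacna2d3 code for a fragment. The sequences that set these isoforms apart are shown first, each read 5′ to 3′ from the GENCODE M21 transcripts.

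Kcnh7 ENSMUST00000112452 (chr2:62786367-63184170, minus strand) has 515 codons against 1195 in the full-length ENSMUST00000075052. Kcnh7 encodes a channel of the ERG family, which conducts a slow potassium current. The listed isoform leaves out an exon of 21 bases, or 7 codons, at chr2:62845754-62845774. Of the 4 annotated transcripts of the gene, 2 include this exon. It is shown in capitals, with 30 coding bases on either side.
Kcnh7 full-length transcript: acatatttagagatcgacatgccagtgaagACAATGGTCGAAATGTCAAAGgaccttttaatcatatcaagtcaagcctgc
Kcnh7 listed isoform: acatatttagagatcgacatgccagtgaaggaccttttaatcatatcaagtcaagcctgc
The isoform also ends early, by reading past an exon end for 12 coding bases. These are in capitals for the listed isoform, and the next exon is in capitals for the full-length transcript.
Kcnh7 listed isoform, coding end: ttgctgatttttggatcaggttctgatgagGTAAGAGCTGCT
Kcnh7 full-length transcript, same place: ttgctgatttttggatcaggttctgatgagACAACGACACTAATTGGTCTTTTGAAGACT

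Kcnt1 ENSMUST00000114172 (chr2:25877783-25917563, plus strand) codes for 1224 codons against 1238 in the full-length ENSMUST00000037580. Kcnt1 encodes a sodium-activated potassium channel. The difference is an exon of 42 bases, or 14 codons, at chr2:25882196-25882237, which 4 of the 15 annotated transcripts carry. Capitals mark that exon near the start of the coding sequence.
Kcnt1 full-length transcript: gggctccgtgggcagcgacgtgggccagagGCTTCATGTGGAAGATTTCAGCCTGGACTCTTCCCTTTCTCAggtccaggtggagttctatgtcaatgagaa
Kcnt1 listed isoform: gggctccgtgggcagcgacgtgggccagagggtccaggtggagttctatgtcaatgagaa

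Scn8a ENSMUST00000201438 (chr15:100955501-100961465, plus strand) is a 5-exon fragment of the gene for the main sodium channel of the axon initial segment and nodes of Ranvier. Its annotated coding sequence lacks a start and has 131 codons, against 1978 in the full-length ENSMUST00000082209. Of its 2110 exonic bases, 1771 are absent from the full-length transcript.

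Cacna2d3 ENSMUST00000225985 (chr14:28905247-28969471, minus strand) codes for 264 codons against 1091 in the full-length ENSMUST00000022567. Cacna2d3 encodes an auxiliary alpha2-delta subunit, which promotes the surface level of calcium channels. The isoform begins inside an intron of the full-length transcript, so that its first 138 coding bases are not in that transcript. The first shared coding bases, in capitals, follow 2619 coding bases in the full-length transcript.
Cacna2d3 listed isoform, coding start: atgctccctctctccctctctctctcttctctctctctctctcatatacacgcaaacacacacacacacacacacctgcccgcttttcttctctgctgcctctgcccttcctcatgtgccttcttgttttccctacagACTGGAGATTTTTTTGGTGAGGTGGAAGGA
Cacna2d3 full-length transcript, same place: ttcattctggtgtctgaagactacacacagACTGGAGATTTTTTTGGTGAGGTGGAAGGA

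The remaining isoform has no annotated coding sequence. Kcnh2 ENSMUST00000126791 (chr5:24324490-24325789, minus strand) extends an exon by 118 bases into the intron before it, shown in capitals.
Kcnh2 listed isoform: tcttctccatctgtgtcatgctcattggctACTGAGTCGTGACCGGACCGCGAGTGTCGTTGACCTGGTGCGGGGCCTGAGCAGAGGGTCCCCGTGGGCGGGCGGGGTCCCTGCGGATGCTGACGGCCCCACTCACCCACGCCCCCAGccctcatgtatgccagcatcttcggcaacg

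Most exonic bases of these isoforms are shared with other transcripts of the gene. A median of 5.70% of an isoform's bases occurred in no other annotated transcript, against 3.07% for the 1136 annotated transcripts of the list. The Kcnh7 isoform had 0 such bases and was set apart by 1 splice junction only. Scn8a was the exception, with 79.5% of its bases found in no other annotated transcript. A level given to an isoform that is nearly all shared rests on how the reads were divided among transcripts.

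**Figure D1:**
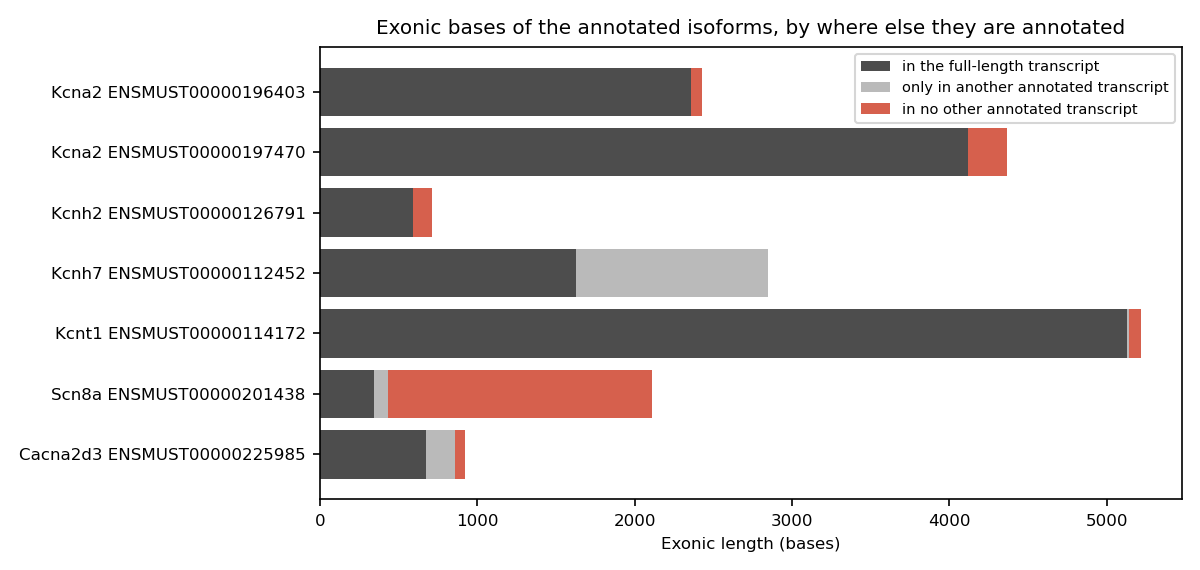
Exonic length in bases (x axis) of the 7 channel isoforms, split into bases that the full-length transcript of the gene also holds, bases found only in another annotated transcript, and bases found in no other. All except Scn8a are mainly made of bases in the full-length transcript, and for Scn8a the own bases number 1677 of 2110.

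The knockout was checked first at Jade2 itself. The annotated isoform ENSMUST00000109091 was listed at 0 in all 4 knockout libraries, against 2.66, 2.66, 1.41 and 5.05 FPKM in control replicates 1 to 4 (difference -2.68 on the log2(FPKM + 0.5) scale, exact permutation test, two-sided p = 0.0286, which is the minimum for 4 against 4 libraries). The unnamed model MERGE.3721.8 of the same locus was at 0 in 3 knockout libraries and 0.00225 FPKM in the other, against 11.8, 1.79, 7.76 and 10.96 FPKM in the controls. The other 3 listed models went the other way. MERGE.3721.1 was at 8.33, 3.59, 7.82 and 12.3 FPKM in the knockout replicates, MERGE.3721.3 at 8.03, 2.93, 4.12 and 2.14 FPKM and MERGE.3721.4 at 3.17, 1.55, 2.18 and 0.501 FPKM, and all 3 were listed at 0 in every control. The authors' deposited table gives these models adjusted p-values of 0.00529 (MERGE.3721.1), 0.00703 (MERGE.3721.3) and 0.0344 (MERGE.3721.4). For the models lower in the knockout it gives 0.00529 (ENSMUST00000109091) and 0.0755 (MERGE.3721.8). The listed Jade2 models thus differed between the groups, and the 5 together summed to 14.2 ± 4.71 FPKM in Jade2 KO libraries and 11.03 ± 5.28 FPKM in control libraries (SD, n = 4 per group). The exact permutation test on that sum gave a two-sided p of 0.457. Median listed abundance per library lay between 0.773 and 0.900 FPKM over all 8 libraries.

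Across the channel isoforms the knockout libraries had higher levels in 5 and lower levels in 2, and none of these differences passed a test across all transcripts. Higher in the knockout were both listed isoforms of Kcna2 and those of Kcnh7, Kcnt1 and Scn8a. Lower were the isoforms of Kcnh2 and Cacna2d3. By type, 4 potassium isoforms were higher and 1 lower, the sodium isoform was higher and the calcium isoform lower. In the whole list 48.5% of rows were higher in the knockout. In bulk tissue, a change in the number of cells of a type and a change in RNA per cell cannot be told apart. The median log2 fold change in the authors' deposited table was 2.31 for the channel isoforms and -1.04 for all listed rows. As no listed absolute log2 fold change is under 1.00, the sign of each median only restates which direction the majority took. Of the 5 higher channel isoforms, 2 are of the same Kcna2 locus.

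The 7 isoforms were fitted together with all listed rows in limma on log2(FPKM + 0.5), with Benjamini-Hochberg adjustment over the 104721 transcripts that the authors' adjusted p-values imply. No channel isoform had a limma adjusted p under 0.05, and all 7 had an adjusted p of 1. Over the whole list 7 rows, or 0.417%, passed. At an unadjusted limma p under 0.05 there were 7 channel isoforms of 7, where 73.3% of all listed rows reached the same level, a share set by the selection of the list. In the authors' deposited table the adjusted p was 0.794 for Kcnh7, 0.868 for Scn8a and 0.888 for the other 5 isoforms, and 0 channel isoforms were under 0.05. The table has 15 rows under that value, 0.0143% of the implied transcripts.

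For 3 of the 7 isoforms every knockout library lay on one side of every control library, where 36.1% of all listed rows showed such a separation. These 3 were Kcnh7, Scn8a and Cacna2d3. With 1 library left out, a choice made after seeing the data, the count was 3 or 4 of 7 except without control replicate 3. The share of all listed rows was then 45.0% to 47.3%. Without control replicate 3 the count was 6 of 7, with 44.6% of all listed rows. The isoforms gained were both of Kcna2 and that of Kcnt1. Channel isoforms were mostly low: the mean over all 8 libraries ran between 0.347 FPKM for Kcnh7 and 1.60 FPKM for Kcna2 ENSMUST00000196403, with a median of 0.508, against a median of 1.02 FPKM for all listed rows. Only 1 of the 7 had a mean of at least 1 FPKM, where 50.6% of listed rows did, and 3 were listed at 0 in at least 1 library, where 41.2% of listed rows were.

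**Figure D2:**
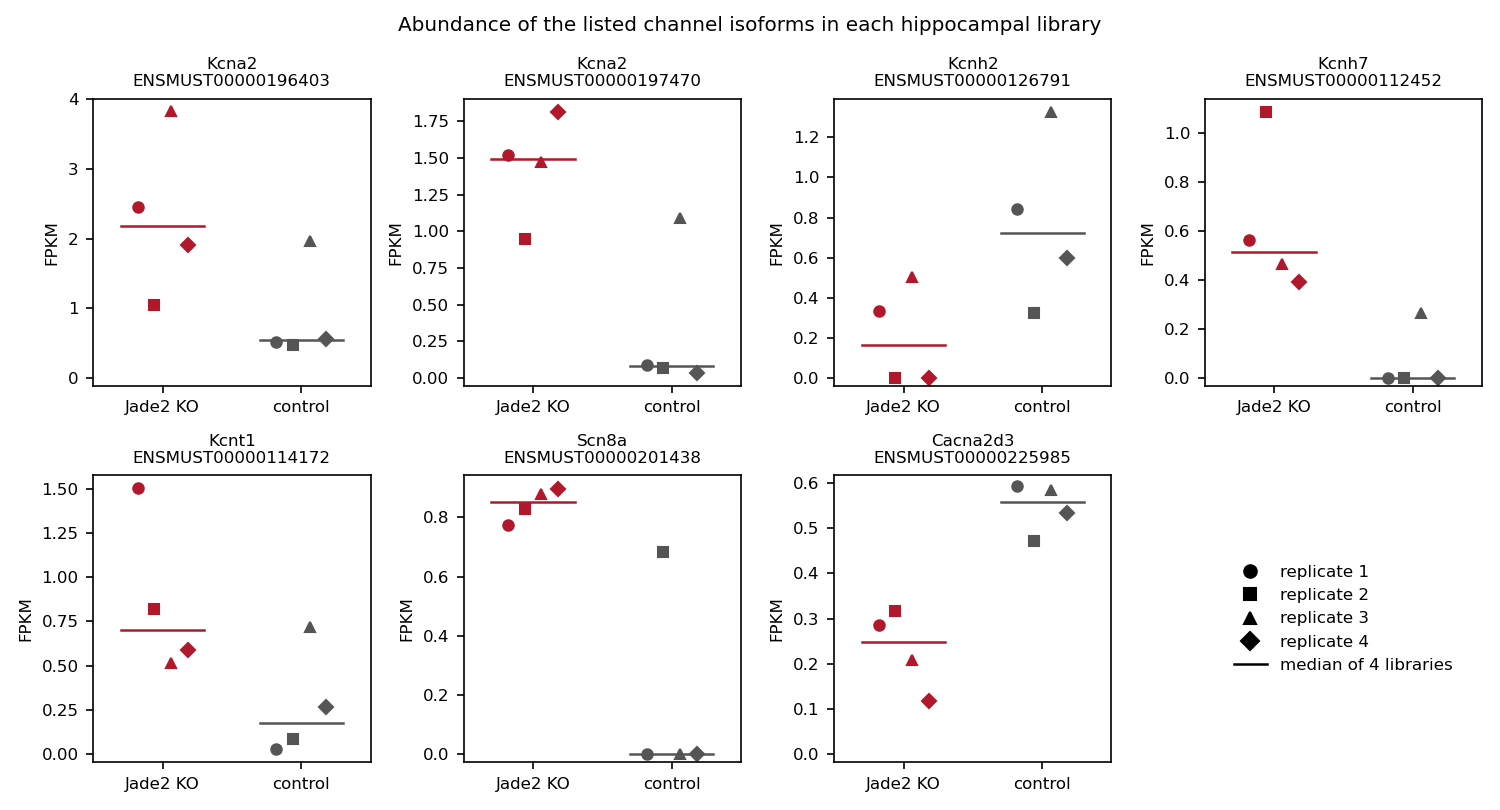
Abundance in FPKM (y axis) of each listed channel isoform in the 4 Jade2 KO libraries (red, left) and the 4 control libraries (grey, right). Each marker shape is a replicate number and each line a group median, and in the 5 isoforms that are higher in the knockout the highest control library is replicate 2 or 3 and stands well above most of the others.

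Potassium channels of the Kv1 family set the threshold for firing along axons, and Kcna2 is one of their main subunits. Kcna2 ENSMUST00000197470 (chr3:107101146-107107737, plus strand) was at 1.52, 0.949, 1.47 and 1.81 FPKM in Jade2 KO replicates 1 to 4, and at 0.0902, 0.071, 1.09 and 0.0361 FPKM in control replicates 1 to 4. Control replicate 3 lay within the knockout range and the other controls far under it. The group averages were 1.44 ± 0.360 FPKM in Jade2 KO libraries and 0.322 ± 0.513 FPKM in control libraries (SD, n = 4 per group). Its limma difference was 1.38 with an SE of 0.38 on the log2(FPKM + 0.5) scale.

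Kcna2 ENSMUST00000196403 (chr3:107102682-107105971, plus strand) stood at 2.46, 1.05, 3.84 and 1.91 FPKM in Jade2 KO replicates, against 0.520, 0.466, 1.96 and 0.564 FPKM in control libraries. Again control replicate 3 was within the knockout range, above knockout replicates 2 and 4. The difference for this isoform was 1.05 with an SE of 0.45 on the same scale. Both isoforms hold the same 1497 coding bases as the full-length ENSMUST00000038695, so they differ from it and from each other only outside the coding sequence. In ENSMUST00000197470 249 bases, and in ENSMUST00000196403 75 bases, occur in no other annotated transcript of the gene. Each also has 1 splice junction of its own.

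The listed Kcna2 isoforms summed to 3.98, 1.999, 5.31 and 3.72 FPKM in Jade2 KO replicates, against 0.611, 0.537, 3.06 and 0.600 FPKM in control libraries. This sum was higher by 1.48 (SE 0.50) on the log2(FPKM + 0.5) scale with a two-sided exact permutation p of 0.0571. It covers the listed rows only. Both rows were selected for a difference before deposition, so this p is no independent support for one. The full-length transcript was not analysed here, so nothing is said of the gene's total or its protein.

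**Figure D3:**
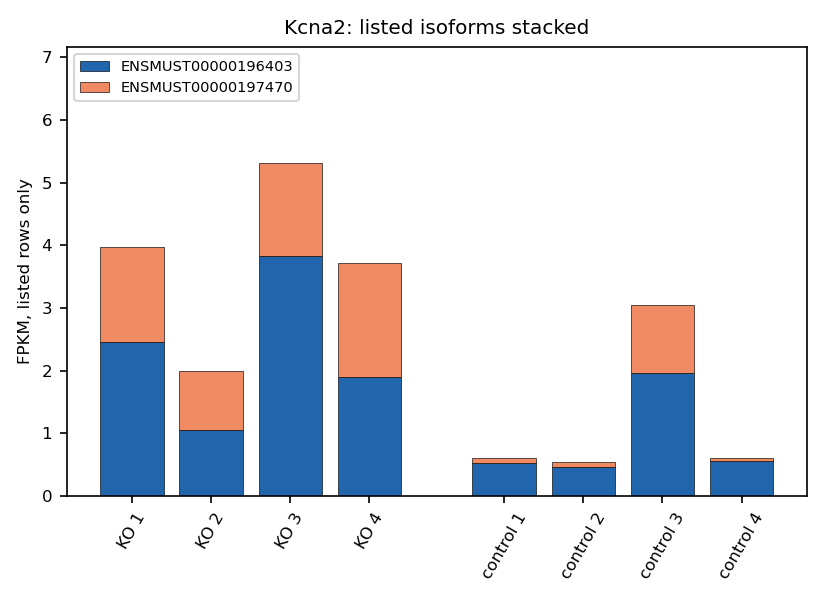
Listed isoforms of Kcna2 stacked in each library, in FPKM (y axis), with the 4 knockout libraries left of the 4 control libraries. Control replicate 3, at 3.06 FPKM, is the only control library that reaches the range of the knockout libraries.

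The ERG channels gave 1 isoform in each direction. Kcnh7 ENSMUST00000112452, the isoform without the 21-base exon and with the early coding end, was at 0.564, 1.09, 0.467 and 0.394 FPKM in Jade2 KO replicates. It was listed at 0 in 3 controls and at 0.266 FPKM in control replicate 3. The groups did not overlap, and the limma difference of 0.98 had the smallest SE among the higher isoforms (0.26). Kcnh7 also had the largest log2 fold change of the channel isoforms in the authors' deposited table, 6.19, with a p of 0.00164 there. Because 3 controls are listed at 0, the size of that fold change depends on how a 0 was treated.

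Kcnh2, known for the repolarising current of heart muscle and also active in neurons, had its processed transcript ENSMUST00000126791 at 0.332 and 0.502 FPKM in Jade2 KO replicates 1 and 3 and at 0 in replicates 2 and 4. Control replicates 1 to 4 were at 0.843, 0.323, 1.33 and 0.599 FPKM. Control replicate 2 lay within the knockout range. The limma difference was -0.85 (SE 0.33).

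Kcnt1 channels open as sodium enters during firing and slow later spikes. Kcnt1 ENSMUST00000114172, without the 42-base exon, was at 1.5004, 0.819, 0.515 and 0.590 FPKM in Jade2 KO replicates, against 0.0287, 0.0853, 0.716 and 0.266 FPKM in control libraries. Control replicate 3 was above knockout replicates 3 and 4. The averages were 0.856 ± 0.449 FPKM in Jade2 KO libraries and 0.274 ± 0.312 FPKM in control libraries (SD, n = 4 per group), and the limma difference was 0.83 (SE 0.33).

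The sodium channel fragment Scn8a ENSMUST00000201438 was the most even isoform among the knockouts, at 0.775, 0.828, 0.877 and 0.896 FPKM in replicates 1 to 4. Of the controls, 3 were listed at 0 and replicate 2 was at 0.684 FPKM, below every knockout library. The limma difference was 1.11 (SE 0.31), and the authors' deposited table gives a log2 fold change of 6.03. As for Kcnh7, the size of that fold change depends on how a 0 was treated. Most of this isoform's bases are absent from the full-length transcript, as given above.

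The calcium channel isoform Cacna2d3 ENSMUST00000225985 was lower in the knockout, at 0.287, 0.317, 0.209 and 0.118 FPKM, against 0.592, 0.470, 0.584 and 0.532 FPKM in the control replicates. All 4 knockout libraries lay under all 4 controls. The averages were 0.233 ± 0.0892 FPKM in Jade2 KO libraries and 0.545 ± 0.0563 FPKM in control libraries (SD, n = 4 per group), and neither group held a library at 0. On the log2(FPKM + 0.5) scale the difference was -0.52 (SE 0.21), while the authors' deposited table gives a log2 fold change of -1.40, since the added 0.5 is about as large as the values. No pore-forming calcium channel subunit is among the channel isoforms reported here.

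**Figure D4:**
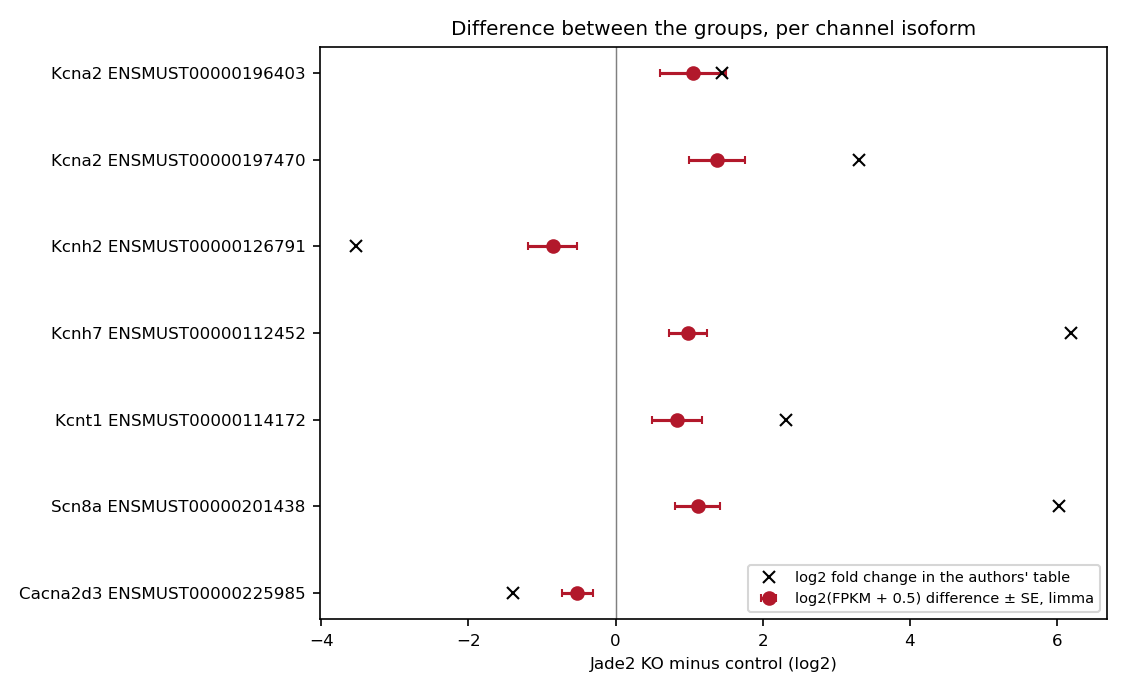
Difference between Jade2 KO and control (x axis, log2) for each channel isoform, with circles for the limma difference of log2(FPKM + 0.5) with its SE and crosses for the log2 fold change in the authors' deposited table. Signs are the same in both, and the crosses for Kcnh7 and Scn8a, at 6.19 and 6.03, are the farthest from the circles.

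Control replicate 3 was the highest control in 4 of the 5 higher isoforms (both of Kcna2, Kcnh7 and Kcnt1), and replicate 2 was in 1 (Scn8a). The Kcna2 isoforms share a locus. Over all rows listed as higher in the knockout, the share was 25.2% for replicate 3 and 21.2% for replicate 2. In the lower isoforms the highest control was replicate 3 for Kcnh2, at 1.33 FPKM, and replicate 1 for Cacna2d3, at 0.592 FPKM.

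Proteins that bind, anchor or act with these channels were taken from a list of 50 genes, chosen with earlier results of these data known. Of them 8 had a listed isoform, 6 higher and 2 lower in the knockout (48.5% of all listed rows were higher), and 0 passed limma at an adjusted p of 0.05 (7 at an unadjusted p under 0.05, which 73.3% of listed rows reached) or had an adjusted p below 0.05 in what the authors' deposited table lists. Their median log2 fold change in the authors' deposited table was 3.43, the sign of which only restates that most were higher. The groups did not overlap in 2 of the 8, Camk2b and Stac2, where 36.1% of all listed rows were separated.

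Among the partners of sodium and HCN channels, Fgf14 ENSMUST00000026631, from the gene of an intracellular factor that binds sodium channels, was at 4.08, 0.0218, 0.0173 and 1.81 FPKM in Jade2 KO replicates, against 4.47, 3.96, 3.15 and 2.99 FPKM in control libraries. Knockout replicate 1 lay among the controls. Pex5l ENSMUST00000108225, from the gene of an HCN channel partner, was at 0.767, 0.928, 0.494 and 0.265 FPKM in Jade2 KO libraries, against 0.227, 0.00868, 0.0126 and 0.340 FPKM in control libraries.

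Adam22 and Adam23 encode receptors of the secreted protein Lgi1, which is found with Kv1 channels on axons. Adam22 ENSMUST00000154935 was at 0.484, 0.710, 0.668 and 0.169 FPKM in Jade2 KO libraries and was listed at 0 in 3 controls, with 0.555 FPKM in control replicate 3. Adam23 ENSMUST00000114103 was listed at 0 in knockout replicates 1 and 4 and at 0.366 and 1.92 FPKM in replicates 2 and 3, against 4.55, 2.35, 3.45 and 1.60 FPKM in control libraries. The listed isoforms of these 2 genes thus stood in opposite directions, each with overlapping groups, and nothing is said of the genes' totals or of the receptors.

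On the calcium side, Ryr2 ENSMUST00000220597, of a channel that releases stored calcium, was at 7.65, 5.13, 5.73 and 7.26 FPKM in Jade2 KO libraries, against 0.069, 0.0137, 0.0133 and 6.77 FPKM in control libraries. Control replicate 4 lay within the knockout range. Stac2 ENSMUST00000131519, of an adaptor that binds voltage-gated calcium channels, was at 1.44, 0.530, 0.274 and 0.393 FPKM in Jade2 KO libraries, against 0.0495 and 0.261 FPKM in control replicates 1 and 3 and 0 in the others. Camk2b ENSMUST00000090443, of a calcium-dependent kinase, was at 126, 203, 109 and 124 FPKM in KO libraries, above all controls at 73.2, 47.5, 32.2 and 92.1 FPKM (limma difference 1.26, SE 0.38). Apart from the calcium genes, the list also held Nlgn1, of a postsynaptic adhesion protein. Its isoform ENSMUST00000075054 had overlapping groups and a limma difference of 1.41 (SE 0.64).

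Markers of the cell types that hippocampal tissue can hold were little represented in the list, at 8 of 33 genes. Of 9 hippocampal neuron markers only Mpped1 was listed, at 48.8 to 80.5 FPKM in Jade2 KO libraries and 15.2 to 81.0 FPKM in control libraries, so the labelled tissue could not be checked further. Summed listed markers ranged over 39.0 to 77.4 FPKM in Jade2 KO libraries and 18.3 to 29.4 FPKM in control libraries for oligodendrocytes (2 of 5 genes), where the 2 Plekhb1 rows were higher in the knockout and the Mag row lower. For endothelial and mural cells (3 of 5) the sums were 10.1 to 17.8 FPKM in the knockout and 1.78 to 11.4 FPKM in the control. The precursor marker Lhfpl3 (1 of 3 genes) ranged over 0.572 to 2.04 FPKM in the knockout, against 0.00839 to 0.052 FPKM in controls, and the microglial Csf1r (1 of 4) over 0.014 to 1.57 FPKM in the knockout, against 1.19 to 21.3 FPKM in controls. None of the 5 astrocyte or 2 choroid plexus markers was listed, and of the 9 marker rows in the authors' deposited table, 0 were under an adjusted p of 0.05. The part of these cell types in the channel results was not tested.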

How the data were processed

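Hippocampal RNA was extracted with Trizol and made into libraries with a NEBNext Ultra kit, per the labels' protocols. HISAT2, Cuffdiff and mm10 are named in the submitters' processing notes, without versions. The deposited table gives transcript abundances per library with no unit named, taken here as FPKM. Its log2 fold changes and its unadjusted and adjusted p-values are the authors', and no source used here names their test. Regressed on the difference in mean log2 FPKM, the deposited log2 fold changes of 274 rows (all libraries over 0.5 FPKM) gave a slope of 1.00. Read counts were not used here, so depth and counting error are unknown. Listed rows only were used, and the number of libraries limits the precision.

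Rows were selected by gene symbol and shared merged locus, and 4 of the 11 rows that met the rule are not reported here. Groups came from the labels. All 1679 rows were fitted with limma 3.58.1 (R 4.3.3) on log2(FPKM + 0.5) with a variance trend and no abundance filter, two-sided, with Benjamini-Hochberg adjustment over the 104721 transcripts implied by the ratio of the authors' adjusted to unadjusted p. This scale shrinks the fold changes of low transcripts. The fit was also run on simulated normal values without the selection of the list, so that run does not show how it behaves on selected rows. Locus sums and Jade2 were tested with two-sided exact permutation tests over 70 assignments. Isoform structures came from GENCODE M21. Alternatives were pseudocounts of 0.1 and 1, a mean of at least 1 or 5 FPKM, no variance trend, median-centred libraries, a replicate block and each library left out. Members and lists were chosen with earlier results of these data known. Python 3.11.15, numpy 2.4.6, pandas 2.3.3, scipy 1.17.1 and matplotlib 3.10.9 were used for the rest.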

Additional observations from a re-analysis of the deposited data

Results flagged for a closer look

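In 4 of 14 groups of 4 values, 1 library stood far from the other 3, by Dixon's gap criterion. For independent normal values chance meets it in about 1 of 20 groups, but these values are not such: over all listed rows it was met by 17.2% of knockout groups and 16.9% of control groups. All 4 are control groups of isoforms that were higher in the knockout, with a single high control. For Kcna2 ENSMUST00000196403 and Kcna2 ENSMUST00000197470 it was control replicate 3, at 1.96 and 1.09 FPKM. Control replicate 3 was also the high one for Kcnh7 ENSMUST00000112452, at 0.266 FPKM. For Scn8a ENSMUST00000201438 it was control replicate 2, at 0.684 FPKM. In Kcnh7 and Scn8a the other 3 controls are listed at 0, so any value above 0 meets the criterion, and the Kcna2 isoforms share a locus and its reads.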

How the results depend on the processing

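All 92 recomputed differences of the 7 channel isoforms kept their direction over the alternatives run, and 0 passed an adjusted p of 0.05. The alternatives reuse the values of rows selected for a difference, so a kept direction is no independent support. The unadjusted limma p was under 0.05 in 8 of 14 settings for Kcna2 ENSMUST00000196403. It was so in 9 of 13 for Kcnh2, in 7 of 13 for Kcnt1 and for Cacna2d3, and in 13 of 13 for the other isoforms. With a mean of at least 1 FPKM only 1 of the 7 isoforms could be tested, and with 5 FPKM 0. Over all listed rows limma called 7, against 12 with a pseudocount of 0.1, 0 with a pseudocount of 1, 4 without a variance trend, 5 with median-centred libraries, 0 with either abundance filter and 0 to 7 with a library left out. The pseudocount moved single differences most: Kcnh7 ranged from 0.60 to 2.31 and Scn8a from 0.69 to 2.49. The locus sum of Kcna2 kept its direction under every alternative run and did not pass. With a library left out or with the replicate block it could not pass, as the smallest exact p is then 0.0571 or 0.125. Jade2 ENSMUST00000109091 differed by -2.93 to -2.42 with a library left out, where the exact p cannot go below 0.0571, and by -4.79 with a pseudocount of 0.1 and -1.90 with a pseudocount of 1, since its knockout values are all 0. The count of isoforms whose groups do not overlap, recomputed by a choice made after seeing the data, was 3 to 6 with a library left out, with 6 without control replicate 3. Over all listed rows the share without overlap was then 44.6% to 47.3%, against 36.1% with all libraries, as fewer libraries separate more easily. Deviations of same-numbered libraries correlated at -0.03 to 0.04. The listed rows were selected for a difference, so this cannot decide whether replicate numbers pair the libraries. With the replicate block, limma called 0 rows, 0 of them channel isoforms, and Jade2 still differed by -2.68 with an exact p of 0.125, the smallest that 4 pairs allow.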

Other observations

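Outside the symbol rule, 4 other unnamed merged models overlapped a channel gene by position, on the gene's chromosome in RefSeq GRCm38.p6. They were named after their values were seen. The model MERGE.7787.3, within Cacna1d, a pore-forming calcium channel gene, was at 0.00154, 0.0385, 0.0381 and 0.003 FPKM in Jade2 KO replicates 1 to 4, against 0.762, 0.214, 4.32 and 3.33 FPKM in control libraries, with no overlap of the groups. MERGE.13184.1, within Cacna1b, averaged 17.1 ± 0.757 FPKM in Jade2 KO libraries (SD, n = 4), while control replicates 1 to 4 were at 19.97, 0.0522, 16.8 and 0.00421 FPKM. MERGE.13674.2, over Scn3a, was at 4.20, 6.44, 2.92 and 1.57 FPKM in Jade2 KO libraries, against 1.352, 1.67, 0.0559 and 1.22 FPKM in control libraries, overlapping through knockout replicate 4 and control replicate 2. MERGE.12149.4, over Kcng2, was at 3.07, 3.41, 5.13 and 9.91 FPKM in Jade2 KO libraries, and in the controls at 0.00293, 0, 10.96 and 0 FPKM. All 4 have an adjusted p of 0.888 in the authors' deposited table. Their exons were not compared with those of the genes.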
